A study of Mus musculus with 12 samples.

Results

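Kidneys of TLR4 null mice were compared after ischemia and after sham surgery, with 6 of the 12 arrays of the series: the 3 labelled TLR4 null ischemic kidney and the 3 labelled TLR4 null sham kidney. The members were chosen by these labels alone, and all genes tested were described as ischemic minus sham. The mice were 8-week-old males of C57BL/10ScNJ, a substrain of C57BL/10 that lacks Toll-like receptor 4 (genotype TLR4-/-) in all of its cells. In the ischemic group the right kidney was removed, the pedicle of the left one was clamped for 23 min under isoflurane, and the kidney was taken after 4 h of reperfusion. Sham mice lost the right kidney too and had the clip laid under the pedicle, so that the changes below are those of clamping on top of nephrectomy. The other 6 arrays came from wild-type C57BL/10 kidneys after the same surgeries, and they enter the shared error estimate and one comparison at the end. RNA from whole kidneys was hybridised to a 1-colour array of 45101 probe sets. Each array is described as its own biological replicate.

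Ischemia followed by reperfusion deprives tubule cells of oxygen and ATP and then exposes them to oxidants. The proximal tubule, which lives on fatty acid oxidation and reabsorbs most of the filtered solute, is the segment best known for injury in this model. Cells answer within minutes to hours with immediate early transcription factors, heat shock proteins, the unfolded protein and integrated stress responses and the oxidant response of NRF2, and injured tubules show keratins, NGAL and KIM-1. TLR4 senses bacterial lipopolysaccharide and signals to NF-kB, and it has been proposed to sense molecules set free by damaged cells.

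Gene values are differences of log2(signal + 15), given with the standard error (SE) of limma, and a gene is called where limma's p, adjusted by Benjamini and Hochberg over 14316 genes, is under 0.05. Signals of single arrays are in the arrays' own linear units and are listed for replicates 1, 2 and 3 in this order. Median signals were 63.2 to 74.4 on the ischemic and 61.3 to 77.6 on the sham arrays, and over all genes arrays of a group correlated at r = 0.961 to 0.973 and arrays of different groups at 0.949 to 0.960. The 3' probe set of the 18S control stood apart, at 2287, 2646 and 1410 on the ischemic against 439, 304 and 476 on the sham arrays, and its part in any result was not tested. The 2 Tlr4 probe sets that passed the filter were dim (0.901 to 3.38 and 6.33 to 60.4 on the 6 arrays). The dimmer one passed it through wild-type arrays alone. Neither was called between the surgeries (adjusted p of 0.997 and 0.931 in limma over all probe sets), and the gene test gave 0.09 ± 0.45. The mice lack the receptor and the signals are dim, so these tests cannot show how Tlr4 responds to ischemia. Markers of the kidney were bright, with summed signals of 83461 to 95111 on the ischemic and 94426 to 101860 on the sham arrays for 10 proximal tubule genes.

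Ischemia changed many genes in kidneys without TLR4, the rises by more than the falls. Of 14316 genes, 1412 rose (9.86%) and 1676 fell (11.7%), 3088 in all (21.6%). At least 2-fold changes were mostly rises: 359 genes rose and 169 fell at least 2-fold, 77 rose and 6 fell at least 4-fold, and 22 rose but none fell at least 8-fold. The median change was 0.66 among the genes that rose, -0.54 among those that fell and -0.07 over all genes. The 3 ischemic and the 3 sham arrays did not overlap for 4871 genes (34%), 1989 of them higher and 2882 lower, and 2999 of the 3088 called genes were among these. The call was kept without each of the 6 arrays in turn for 1857 of the 3088 genes, and for 321 of the 359 rises and 126 of the 169 falls of at least 2-fold. With each array centred on its median, 1030 genes fell and 1180 rose. In the lists below, counts of 1 or 2 members often changed when an array was left out or the arrays were centred, and larger counts that moved by more than 1.5 times are given with the array concerned.

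**Figure D1:**
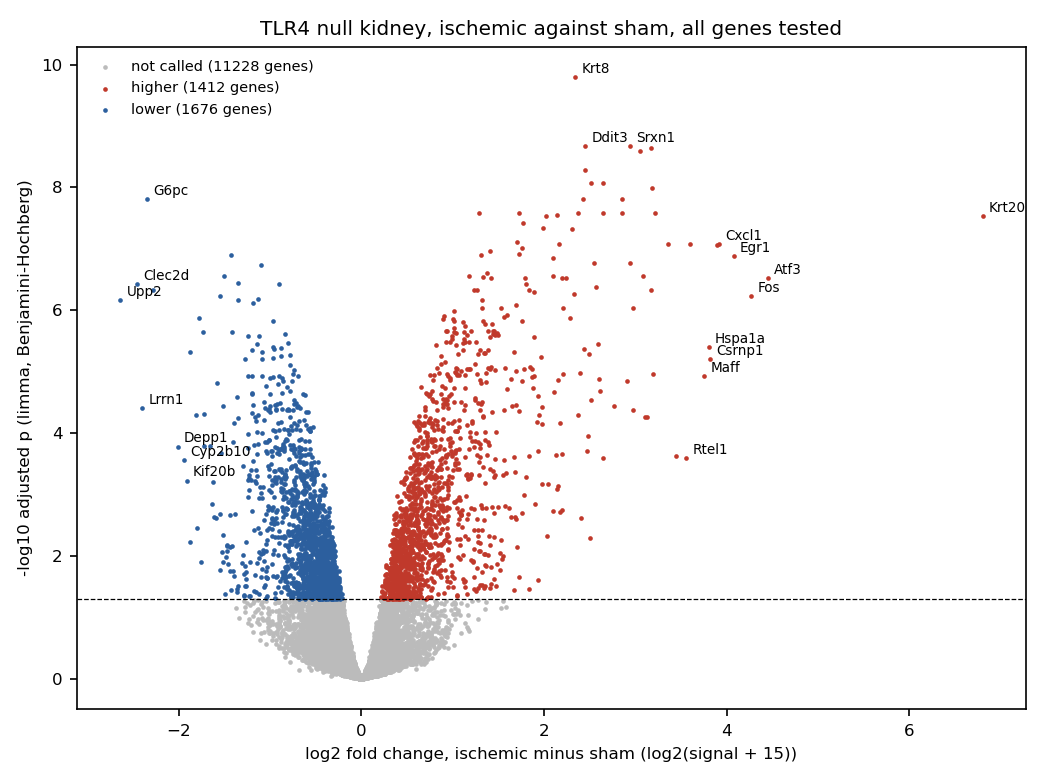
Each point is 1 of the 14316 genes tested, with the log2 fold change of TLR4 null ischemic minus sham kidneys on the x axis and -log10 of limma's adjusted p on the y axis; the dashed line marks 0.05. The 1412 genes called higher (red) reach further from 0 than the 1676 called lower (blue), with Krt20 at 6.80 and Upp2 at -2.64 as the ends.

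The 15 largest rises whose arrays did not overlap joined a keratin, immediate early genes, a chemokine, a heat shock protein and enzymes of heme and glutathione breakdown. Krt20, an intermediate filament keratin of epithelia, had signals of 5511, 5908 and 3102 in ischemic and 44.4, 2.03 and 57.9 in sham kidneys. All 3 ischemic arrays were far above the sham arrays, and the rise of 6.80 ± 0.40 was the largest of all (limma adjusted p = 2.9e-08). Cxcl1, a chemokine that attracts neutrophils, had signals of 2444, 3885 and 2232 in ischemic and 123, 157 and 252 in sham kidneys. This was a rise of 3.91 ± 0.25 (limma adjusted p = 8.3e-08), with replicate 2 the highest. Its other probe sets rose by less, 2.66 and 1.64 (limma adjusted p over all probe sets of 1.7e-06 and 6.2e-06). Hmox1, the enzyme that breaks down heme, had 6461, 11250 and 3108 in ischemic and 1156, 306 and 458 in sham kidneys, with a wide spread in both groups and no overlap (rise 3.44 ± 0.52). Tnfrsf12a, the receptor of the cytokine TWEAK, had 3205, 6885 and 6706 in ischemic and 453, 507 and 549.6 in sham kidneys and rose by 3.36 ± 0.22. Akap12, a scaffold of protein kinase A, had 1964, 2727 and 2298 in ischemic and 276, 214 and 237 in sham kidneys and rose by 3.18 ± 0.16. In both genes the sham arrays lay close together and every ischemic array was several times higher. Csrnp1, a nuclear protein induced by AXIN1, was dim in sham kidneys. It had 523, 404 and 710.3 in ischemic and 13.4, 11.6 and 62.9 in sham kidneys (rise 3.81 ± 0.39). Its other probe set did not pass (-0.52, limma adjusted p over all probe sets = 0.473). Dusp5, a nuclear phosphatase that switches off ERK, went from 417, 286 and 417 in ischemic and 23.4, 13.5 and 13.9 in sham kidneys and rose by 3.60 ± 0.23. Rtel1, a DNA helicase of telomeres, was called on 1 of its 3 probe sets, with 359.6, 282 and 1006 in ischemic and 29.9, 20.9 and 28.1 in sham kidneys there (3.56 ± 0.54) and changes of 0.30 and -0.58 on the other ones, neither of which passed. The rise of Rtel1 rests on that probe set, which was brightest on ischemic replicate 3.

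**Figure D2:**
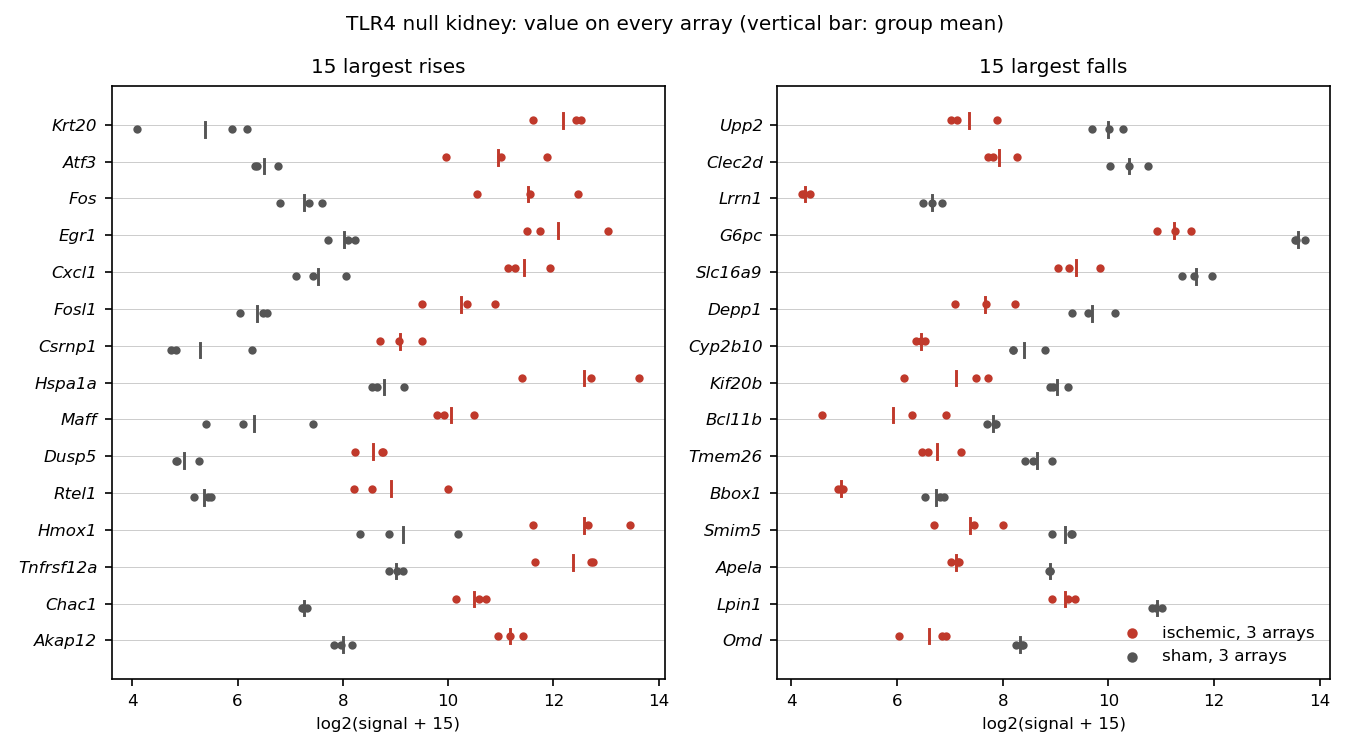
Values on every array, as log2(signal + 15), of the 15 genes with the largest rises (left) and the 15 with the largest falls (right) in TLR4 null kidneys; red points are the 3 ischemic arrays, grey points the 3 sham arrays, and vertical bars the group means. No gene shown has overlapping groups, which is part of how these genes were chosen, and the spread of the ischemic arrays is wide for Hspa1a (2710 to 12724) and narrow for Akap12 (1964 to 2727).

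Early transcription factors, and other early genes listed with them, rose almost as a whole. The list is called early transcription factors below and also holds Zfp36 and Btg2. Of 22 tested genes of this list, 20 rose and none fell, with a median of 1.82 beside -0.07 over all genes. Fos, a subunit of the transcription factor AP-1, had 2982, 1481 and 5666 in ischemic and 96.5, 149 and 179.8 in sham kidneys and rose by 4.27 ± 0.34 (limma adjusted p = 5.78e-07). Atf3, a stress-induced factor of the same family of leucine zippers, had 2035, 976 and 3740.4 in ischemic and 94.6, 67.4 and 66.0 in sham kidneys and rose by 4.45 ± 0.33. Every ischemic array was well above the sham arrays in both genes, and replicate 3 was the highest and replicate 2 the lowest in each. Fosl1, an AP-1 subunit that follows Fos in time, had 1303, 1897 and 710.2 in ischemic and 79.2, 50.8 and 74.8 in sham kidneys and rose by 3.89 ± 0.26, here with replicate 2 the highest and replicate 3 the lowest. Maff, a small Maf factor, had 867, 958 and 1418 in ischemic and 53.7, 27.1 and 157 in sham kidneys (3.76 ± 0.41). The zinc finger factor Egr1 rose by 4.08 ± 0.28, Jun by 2.76 ± 0.34, Fosb by 2.50 ± 0.57, and Myc, which drives growth genes, by 2.55 ± 0.18. Ier2 (2.25 ± 0.17), the antiproliferative factor Btg2 (1.87 ± 0.20), and Zfp36, which destabilises AU-rich mRNAs (1.33 ± 0.17), also rose, while 2 of the list did not pass.

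Other regulators of growth signals and cell death rose in part in some lists and split in others. Among 16 Kruppel-like factors 5 rose and 3 fell, a split family. In this list 3 rose without sham replicate 2. Klf6, an injury-induced factor, had 2684, 3035 and 4001 in ischemic and 418, 336 and 367 in sham kidneys and rose by 3.05 ± 0.14 (limma adjusted p = 2.59e-09). Klf5 (2.29 ± 0.20) and Klf4 (1.07 ± 0.16) rose as well, and Klf15, a factor of metabolic genes, fell (-1.19 ± 0.14). Of 18 dual specificity phosphatases, which dephosphorylate MAP kinases, 6 rose and 1 fell. Besides Dusp5 these were led by Dusp14 (2.85 ± 0.15) and Dusp8 (1.88 ± 0.21), whereas Dusp1, the classical early member, did not pass (0.29 ± 0.18, adjusted p = 0.297). Among 10 ligands, receptors and inhibitors of the EGF receptor family 1 rose (10%) and 2 fell (20%), with a median of -0.16. These shares stand beside 9.86% of all genes higher and 11.7% lower. Hbegf, a ligand, rose (2.85 ± 0.16), and the receptor Erbb3 (-0.74 ± 0.11) and the receptor inhibitor Lrig1 (-1.03 ± 0.22) fell. Of 21 p53 targets and growth arrest genes 9 rose, among them Gadd45a (2.57 ± 0.20), Plk3 (2.43 ± 0.13) and the cell cycle inhibitor Cdkn1a (1.19 ± 0.16), and Sesn1 fell (-1.23 ± 0.22). In the BCL2 family 3 of 17 genes rose (17.6%) and 4 fell (23.5%). Pmaip1 (NOXA), which promotes cell death, rose (2.51 ± 0.30) together with Mcl1, which protects (1.41 ± 0.09), and the death-promoting Bmf (-1.07 ± 0.14) and Bid (-0.77 ± 0.12) fell.

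Heat shock chaperones rose in TLR4 null kidneys, by amounts that differed between the 3 ischemic arrays. Of 19 tested chaperones and co-chaperones 13 rose, none fell, and the median was 0.89. Hspa1a, the inducible 70-kDa chaperone, had 6758, 2709.6 and 12724 in ischemic and 557, 360.5 and 389 in sham kidneys and rose by 3.80 ± 0.37 (limma adjusted p = 3.92e-06). Hspb1, a small heat shock protein that guards actin, had 5995, 2684 and 12199 in ischemic and 1096, 861 and 1154 in sham kidneys and rose by 2.48 ± 0.34. Replicate 2 was the lowest and replicate 3 the highest ischemic array in both, and every ischemic array was above every sham array. Dnajb1, a partner of the 70-kDa chaperones, had 4824, 1498 and 9881 in ischemic and 1094, 827 and 836 in sham kidneys (2.17 ± 0.43). Cryab (1.90 ± 0.15), Hsph1 (1.83 ± 0.28), the co-chaperone Bag3 (1.69 ± 0.34) and Hsp90aa1 (0.74 ± 0.12) rose, and the activator of HSP90, Ahsa1, did not pass (0.36 ± 0.17, adjusted p = 0.146). The mitochondrial chaperonin pair Hspd1 (0.61 ± 0.15) and Hspe1 (0.81 ± 0.18) rose by less.

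Heat shock genes are switched on by HSF1, which binds inverted units read here as GAANNTTC on either strand, where N is any base. The 250 bases before the start of 2 of the genes that rose most are shown because both hold this motif, in capitals, 5′ to 3′ on the gene's strand (RefSeq, GRCm38.p6). Hspa1a lies at chr17:34972157-34972406 on the minus strand with 1 match beginning 104 bases before the start, and Hspb1 at chr5:135887669-135887918 on the plus strand with 2 matches, 117 and 97 bases before the start.
Hspa1a: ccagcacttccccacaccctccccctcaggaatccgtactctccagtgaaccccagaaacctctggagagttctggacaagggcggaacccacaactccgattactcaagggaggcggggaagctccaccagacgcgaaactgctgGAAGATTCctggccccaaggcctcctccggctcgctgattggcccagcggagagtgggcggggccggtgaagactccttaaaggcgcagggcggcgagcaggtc
Hspb1: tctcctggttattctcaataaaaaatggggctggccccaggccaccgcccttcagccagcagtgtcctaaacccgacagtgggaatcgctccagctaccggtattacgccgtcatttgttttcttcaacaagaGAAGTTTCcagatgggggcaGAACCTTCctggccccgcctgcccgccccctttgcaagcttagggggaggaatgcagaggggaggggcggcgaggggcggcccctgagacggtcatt
Of the 13 chaperones that rose, 11 had a promoter of 300 bases (250 before to 50 after the start) in the RefSeq table, and 6 of these (54.5%) held the motif, against 9.04% of all 27025 genes with a promoter and 7.45% of the 11484 tested ones. A match is a stretch of letters and not a measured binding site.

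The order of the ischemic arrays was not the same in every stress list. Of the 13 chaperones that rose, 12 were highest on replicate 3 and 12 lowest on replicate 2. The early transcription factors that rose were highest on replicate 3 in 15 of 20 cases. The other way round, the aminoacyl-tRNA synthetases that rose were highest on replicate 2 in 12 of 13 cases and lowest on replicate 3 in 10, and the NRF2 targets that rose were highest on replicate 2 in 6 of 7. The mean over all tested chaperones was 1.32, 0.76 and 1.72 log2 units above the sham mean on ischemic replicates 1, 2 and 3, and that of the synthetases 0.37, 0.60 and 0.31. With 3 arrays these orders are a description without a test, and the 18S 3' control was lowest on replicate 3 of the ischemic arrays (1410 against 2287 and 2646).

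**Figure D3:**
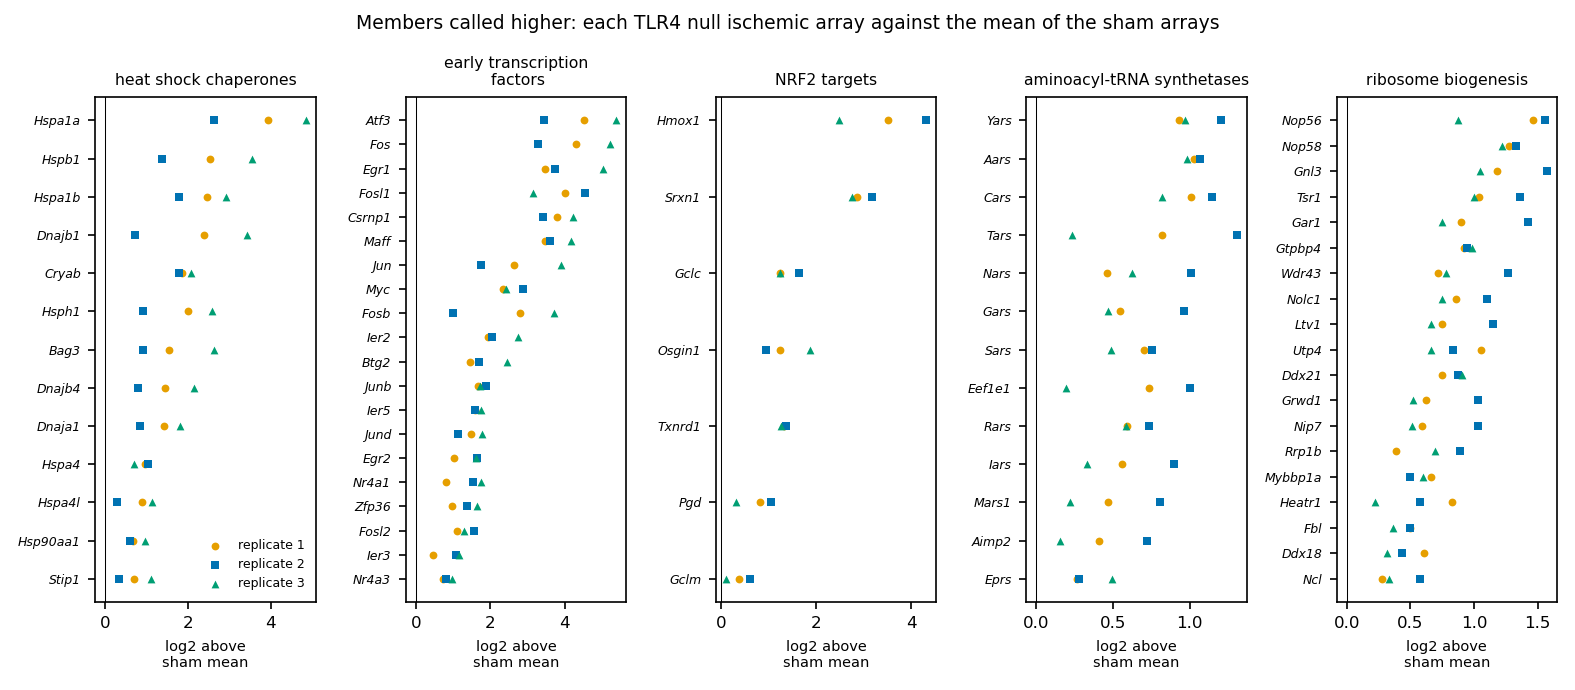
For each member that rose, points give log2(signal + 15) of ischemic replicates 1 (orange circles), 2 (blue squares) and 3 (green triangles) minus the mean of the 3 TLR4 null sham arrays (vertical line at 0). Replicate 3 lies furthest to the right for 12 of 13 chaperones and replicate 2 for 12 of 13 aminoacyl-tRNA synthetases, 6 of 7 NRF2 targets and 12 of 19 ribosome biogenesis genes.

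The unfolded protein and integrated stress responses rose in part. Of 30 tested genes 13 rose and 3 fell, and the median was 0.11. Ddit3, which encodes the stress factor CHOP, had 1555, 1310.3 and 1590.0 in ischemic and 288, 255 and 235 in sham kidneys and rose by 2.45 ± 0.11 (limma adjusted p = 2.14e-09). Atf4, the factor that translates eIF2 phosphorylation into transcription, had 3128, 3351 and 3806 in ischemic and 978, 1149 and 995 in sham kidneys and rose by 1.70 ± 0.11. The groups were far apart in both genes and the ischemic arrays close together. Chac1, which degrades glutathione, had 1127, 1671 and 1519 in ischemic and 145, 135 and 138 in sham kidneys and rose by 3.22 ± 0.18, and the pseudokinase Trib3 rose by 2.48 ± 0.36. The asparagine synthetase Asns (1.89 ± 0.18), the phosphatase subunit Ppp1r15a, which ends the response (1.73 ± 0.12), and Cebpb (1.30 ± 0.19) rose too. The luminal chaperone Hspa5 (BiP) rose by 0.93 ± 0.14. In this list 1 fell without sham replicate 2 and 1 fell after median centring.

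Aminoacyl-tRNA synthetases rose in part, and more amino acid transporters fell than rose. Of 22 cytosolic aminoacyl-tRNA synthetases and their partners, which charge tRNAs, 13 rose and none fell, with a median of 0.47. Aars had 1179, 1217 and 1146 in ischemic and 553, 739 and 457 in sham kidneys and rose by 1.03 ± 0.14 (limma adjusted p = 9.24e-05). Cars had 379, 419.6 and 331 in ischemic and 172, 168 and 205 in sham kidneys and rose by 0.99 ± 0.15. The groups did not overlap in either gene. Yars (1.03 ± 0.16), Sars (0.65 ± 0.08) and Rars (0.64 ± 0.08) rose as well, and 9 of the list did not pass. Among 47 amino acid transporters, 5 rose (10.6%) and 14 fell (29.8%), beside 9.86% and 11.7% of all genes. Those that rose include the cationic carrier Slc7a1 (1.60 ± 0.14) and the glutamine carrier Slc38a2 (1.38 ± 0.10). Both chains of the large neutral amino acid exchanger, Slc7a5 (2.03 ± 0.45) and Slc3a2 (0.67 ± 0.10), rose too. The 14 that fell were led by the taurine carrier Slc6a6 (-1.20 ± 0.14) and Slc6a20a (-0.75 ± 0.17).

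The amino acid response element, bound by ATF4 with CHOP or C/EBP partners, was searched as TGATGNAA on both strands. Chac1 and Asns are shown because both rose and hold it, in capitals, in the 250 bases before the start (RefSeq, GRCm38.p6, gene strand): Chac1 at chr2:119350992-119351241 on the plus strand with a match on its opposite strand 193 bases before the start, and Asns at chr6:7693210-7693459 on the minus strand with a match 23 bases before it, which overlaps a GAANNTTC match.
Chac1: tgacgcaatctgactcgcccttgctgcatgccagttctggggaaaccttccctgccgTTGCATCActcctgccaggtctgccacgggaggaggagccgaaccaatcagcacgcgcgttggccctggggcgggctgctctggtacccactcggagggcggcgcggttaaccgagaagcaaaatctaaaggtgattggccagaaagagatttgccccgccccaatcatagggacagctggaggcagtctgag
Asns: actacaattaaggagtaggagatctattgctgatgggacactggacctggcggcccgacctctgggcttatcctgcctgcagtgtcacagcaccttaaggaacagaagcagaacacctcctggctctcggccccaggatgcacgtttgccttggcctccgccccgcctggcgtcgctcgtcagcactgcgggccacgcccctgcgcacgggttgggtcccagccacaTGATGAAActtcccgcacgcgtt
The element was present in 5 of the 10 synthetase genes that rose and had a promoter in the table (50%). It was in 3 of 13 stress response genes that rose (23.1%), in 4.51% of all genes with a promoter and in 3.01% of the tested ones.

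Genes of the nucleolar steps of ribosome production rose in part. Of 42 ribosome biogenesis genes 19 rose and 1 fell, with a median of 0.44, and 38 of the 42 had means above the sham mean. Nop58, a core protein of box C/D ribonucleoproteins, had 347, 361 and 332 in ischemic and 154, 119.9 and 131 in sham kidneys and rose by 1.28 ± 0.15 (limma adjusted p = 3.27e-05). Nop56 (1.30 ± 0.19), the nucleolar GTPase Gnl3 (1.27 ± 0.14) and Tsr1 (1.14 ± 0.12) rose, and Utp20 fell (-0.86 ± 0.11). The ribosomal proteins themselves were near the share of all genes, with 4 of 41 higher (9.76%) and none lower. In this list 2 rose without ischemic replicate 1 or ischemic replicate 2 or sham replicate 1 or sham replicate 2. Proteasome subunits gave 4 higher and 2 lower of 38, led by Psmd7 (0.44 ± 0.11), with a median of 0.07. In this list 2 rose without sham replicate 1 and 2 rose after median centring. Of 11 genes of polyamine metabolism 3 rose, namely the spermidine synthase Srm (0.85 ± 0.15), Sat1 (0.60 ± 0.10) and Azin1 (0.57 ± 0.10).

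The oxidant response of NRF2 rose in a few strongly induced genes. Of 18 NRF2 targets 7 rose and 2 fell, and the median was only 0.08. Srxn1, which repairs oxidised peroxiredoxins, had 3879, 4839 and 3608 in ischemic and 554, 455 and 555 in sham kidneys and rose by 2.94 ± 0.12 (limma adjusted p = 2.14e-09). Txnrd1, thioredoxin reductase, had 4531, 4645 and 4374 in ischemic and 1773, 1869 and 1796 in sham kidneys and rose by 1.31 ± 0.09. Both genes had tight groups without overlap. Gclc, which makes glutathione, rose by 1.37 ± 0.15, Osgin1 by 1.35 ± 0.19 and Pgd by 0.72 ± 0.15, while the abundant glutathione peroxidase Gpx1 gave -0.17 ± 0.10 (adjusted p = 0.274). Of 15 metallothionein and iron handling genes 3 rose and 3 fell (20% each), beside 9.86% and 11.7% of all genes, with a median of -0.025. The metallothioneins Mt1 (1.17 ± 0.09) and Mt2 (1.32 ± 0.11), which bind zinc, rose, and Aco1 fell (limma adjusted p = 0.00052). Sqstm1, an autophagy receptor that NRF2 also induces, rose by 1.14 ± 0.11. Among 40 lysosome and autophagy genes as a whole 4 rose and 4 fell, which are 10% in each direction. In this list 1 fell after median centring.

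NRF2 and AP-1 bind related motifs, and the promoter of Srxn1 is shown because it holds the AP-1 site TGANTCA more than once (capitals, 102 and 45 bases before the start) at chr2:152105274-152105523, plus strand (RefSeq, GRCm38.p6).
Srxn1: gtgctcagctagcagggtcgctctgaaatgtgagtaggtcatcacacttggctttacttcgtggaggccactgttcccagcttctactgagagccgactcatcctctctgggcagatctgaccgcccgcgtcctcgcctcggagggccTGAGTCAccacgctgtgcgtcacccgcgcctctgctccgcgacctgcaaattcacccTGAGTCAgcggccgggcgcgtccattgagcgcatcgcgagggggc
The antioxidant response element, searched as TGACNNNGC on both strands, can share its TGAC with an AP-1 site. It was present in 4 of the 5 NRF2 targets that rose and had a promoter in the table (80%). Of all genes with a promoter 14% held it, and of the tested ones 16.6%. Among other genes that rose it was in 5 of 10 synthetase genes (50%) and 4 of 13 stress response genes (30.8%). In Srxn1 it lies after the start, outside the stretch shown. The AP-1 site was in 2 of the 5 NRF2 targets (40%), in 8.97% of all genes with a promoter and in 6.97% of the tested ones.

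Markers of tubular injury rose in nearly every case. Of 17 tested markers 16 rose, and the median was 1.78. Krt8, the keratin of simple epithelia, had 8832, 9494 and 8389.8 in ischemic and 1749, 1765 and 1716 in sham kidneys and rose by 2.34 ± 0.08, the smallest p of all genes (limma adjusted p = 1.6e-10). Lcn2, which encodes NGAL, had 1433, 2472 and 1451 in ischemic and 186, 154 and 303 in sham kidneys and rose by 2.98 ± 0.25. No ischemic array came near a sham array in either gene. Krt18, the partner of Krt8, rose by 1.89 ± 0.21, Krt19 by 2.14 ± 0.38, the urokinase receptor Plaur by 1.86 ± 0.20, the regeneration factor Sox9 by 1.78 ± 0.32 and the hyaluronan receptor Cd44 by 1.02 ± 0.15. Ccn2 was the one that did not pass (0.33 ± 0.13, adjusted p = 0.0803). Of 30 keratins and small proline-rich proteins of epithelial envelopes 9 rose, Sprr2f (3.13 ± 0.40) and Sprr1a (1.97 ± 0.26) among them, and the claudins Cldn4 (2.50 ± 0.25) and Cldn7 (1.30 ± 0.13) of tight junctions rose while Cldn2, the leaky claudin of the proximal tubule (-0.88 ± 0.09), and Cldn8 (-0.90 ± 0.14) fell.

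Genes of the cytoskeleton and of mechanical signalling rose in part. Of 21 targets of YAP and TEAD 9 rose and 1 fell. Ccn1, a matricellular protein, had 2825, 4447 and 6882 in ischemic and 432, 424 and 596 in sham kidneys and rose by 3.17 ± 0.25 (limma adjusted p = 4.68e-07), Ankrd1 rose by 2.61 ± 0.30 and Ajuba by 1.28 ± 0.13. Of 23 genes of actin and its partners 13 rose and 1 fell, with a median of 0.38. Vcl, which links actin to adhesions, had 2532, 2776 and 2205 in ischemic and 1046, 991 and 1051 in sham kidneys and rose by 1.26 ± 0.10, and the changes of non-muscle myosin Myh9 (0.90 ± 0.08), Tpm3 (0.78 ± 0.09) and Actg1 (0.58 ± 0.08) were smaller. In the TGF-beta and BMP families 8 of 27 rose, among them the repressor Tgif1 (1.37 ± 0.15), the activin chain Inhbb (1.13 ± 0.17) and Smad3 (0.97 ± 0.09). Of the matrix proteases Adamts1 (2.20 ± 0.16) and Adamts4 (1.61 ± 0.31) rose, and of their inhibitors Timp1 rose (1.16 ± 0.19) and Timp2 fell (-0.61 ± 0.11). Collagens and laminins did not move as a group (3 higher and 7 lower of 47), though Lamc1 rose (1.08 ± 0.15) and the glomerular chains Col4a3 (-0.80 ± 0.10) and Col4a4 (-0.93 ± 0.13) fell. In this list 4 fell without ischemic replicate 2 and 3 fell without sham replicate 1.

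Genes of NF-kB, cytokine and chemokine signalling rose in part in kidneys without TLR4. Of 21 NF-kB subunits, inhibitors and feedback genes 10 rose and none fell, with a median of 0.55. Nfkbiz, a nuclear inhibitor and coactivator, had 1147, 1502 and 1588 in ischemic and 321, 345 and 361 in sham kidneys and rose by 1.99 ± 0.12 (limma adjusted p = 4.56e-08). Tnfaip3 (A20), which shuts the pathway off, had 266, 202 and 358 in ischemic and 103, 79.9 and 102 in sham kidneys and rose by 1.38 ± 0.21, and the subunits Relb (2.15 ± 0.37), Nfkb2 (0.84 ± 0.21) and Rela (0.83 ± 0.09) rose. Of 25 cytokines and their signalling genes 9 rose and 3 fell. Il6 had 256, 737 and 356 in ischemic and 54.6, 31.0 and 34.0 in sham kidneys and rose by 2.97 ± 0.37. Csf1, the growth factor of macrophages, had 353, 366 and 351 in ischemic and 145, 100.4 and 130.3 in sham kidneys and rose by 1.42 ± 0.15, Il34, another ligand of the same receptor, by 1.25 ± 0.15, Lif by 1.76 ± 0.35, Socs3, the feedback inhibitor of STAT3, by 2.11 ± 0.24, and Stat3 itself by 1.00 ± 0.09. Chemokines gave 9 higher and 2 lower of 28. In this list 5 rose without sham replicate 2. Cxcl2 had 449, 645 and 556 in ischemic and 58.2, 36.4 and 60.5 in sham kidneys and rose by 3.09 ± 0.23, the monocyte chemokine Ccl2 rose by 1.06 ± 0.22 and Cxcl10 by 1.11 ± 0.28, and Ccl28 fell (-0.98 ± 0.19).

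Complement genes fell in part. With all arrays, Toll-like receptors, interferon-stimulated and antigen presentation genes were called no more often than all genes (9.86% higher, 11.7% lower). Among 22 Toll-like receptors and adaptors 2 rose (9.09%) and 1 fell (4.55%). The count of rises was 1 without ischemic replicate 1 or sham replicate 3, 5 without ischemic replicate 3 and 4 without sham replicate 1. Cd14, the lipopolysaccharide-binding partner of TLR4, had 386, 398 and 469.6 in ischemic and 253, 205 and 248 in sham kidneys and rose by 0.79 ± 0.16 (limma adjusted p = 0.00221), and the adaptor Myd88 gave 0.29 ± 0.13 (adjusted p = 0.12). None of 24 interferon-stimulated genes rose and 1 fell, with a median of -0.10. Without ischemic replicate 3, 4 of them fell. None of 18 antigen presentation genes rose and 2 fell (11.1%), with a median of -0.18. Of 22 complement genes none rose and 7 fell, with a median of -0.38. C1qa, a chain of the first component made by macrophages, had 166, 168 and 147 in ischemic and 270.1, 244 and 272 in sham kidneys and fell (-0.66 ± 0.13), with every ischemic array below every sham array. The terminal component C8a (-0.81 ± 0.16) and the inhibitor Serping1 (-0.57 ± 0.12) fell too.

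Genes of coagulation and of endothelial adhesion and growth factors split, and endothelial markers fell in part. Of 26 coagulation and fibrinolysis genes 6 rose and 4 fell, with tissue factor (F3) at 1062, 1424 and 1155 in ischemic and 191, 228 and 244 in sham kidneys (rise 2.38 ± 0.14, limma adjusted p = 2.62e-08), the protein C receptor Procr at 1.93 ± 0.23, Thbs1 at 1.69 ± 0.14 and thrombomodulin (Thbd) at 0.57 ± 0.13, and the fibrinogen chain Fga at -1.40 ± 0.20. In this list 2 fell without sham replicate 2. Of 10 endothelial markers none rose and 6 fell, and their summed signal was 3267 to 3686 on the ischemic against 4910 to 5195 on the sham arrays. In whole kidneys fewer endothelial cells and less RNA per cell cannot be told apart. Tek, the angiopoietin receptor, had 159, 138 and 158 in ischemic and 335, 422 and 414 in sham kidneys and fell (-1.28 ± 0.13, adjusted p = 6.28e-06). Plvap, of fenestrated capillaries, had 702, 645 and 678 in ischemic and 1139.6, 1546 and 1112 in sham kidneys and fell (-0.88 ± 0.20). The groups did not overlap in either gene. Cdh5, the cadherin of endothelial junctions, did not pass (0.39 ± 0.18, adjusted p = 0.157). Of 28 endothelial adhesion and growth factor genes 5 rose (17.9%) and 9 fell (32.1%), beside 9.86% and 11.7% of all genes. In this list 3 rose without any 1 of the ischemic arrays and 2 rose without sham replicate 2 or sham replicate 3. Apela, a ligand of the apelin receptor, had 127, 114 and 129 in ischemic and 464, 454 and 458 in sham kidneys. It fell (-1.78 ± 0.15), and so did Angptl4 (limma adjusted p = 2.0e-05). Icam1, which holds leukocytes, rose (0.93 ± 0.11) and so did Nos3 (0.84 ± 0.15).

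**Figure D4:**
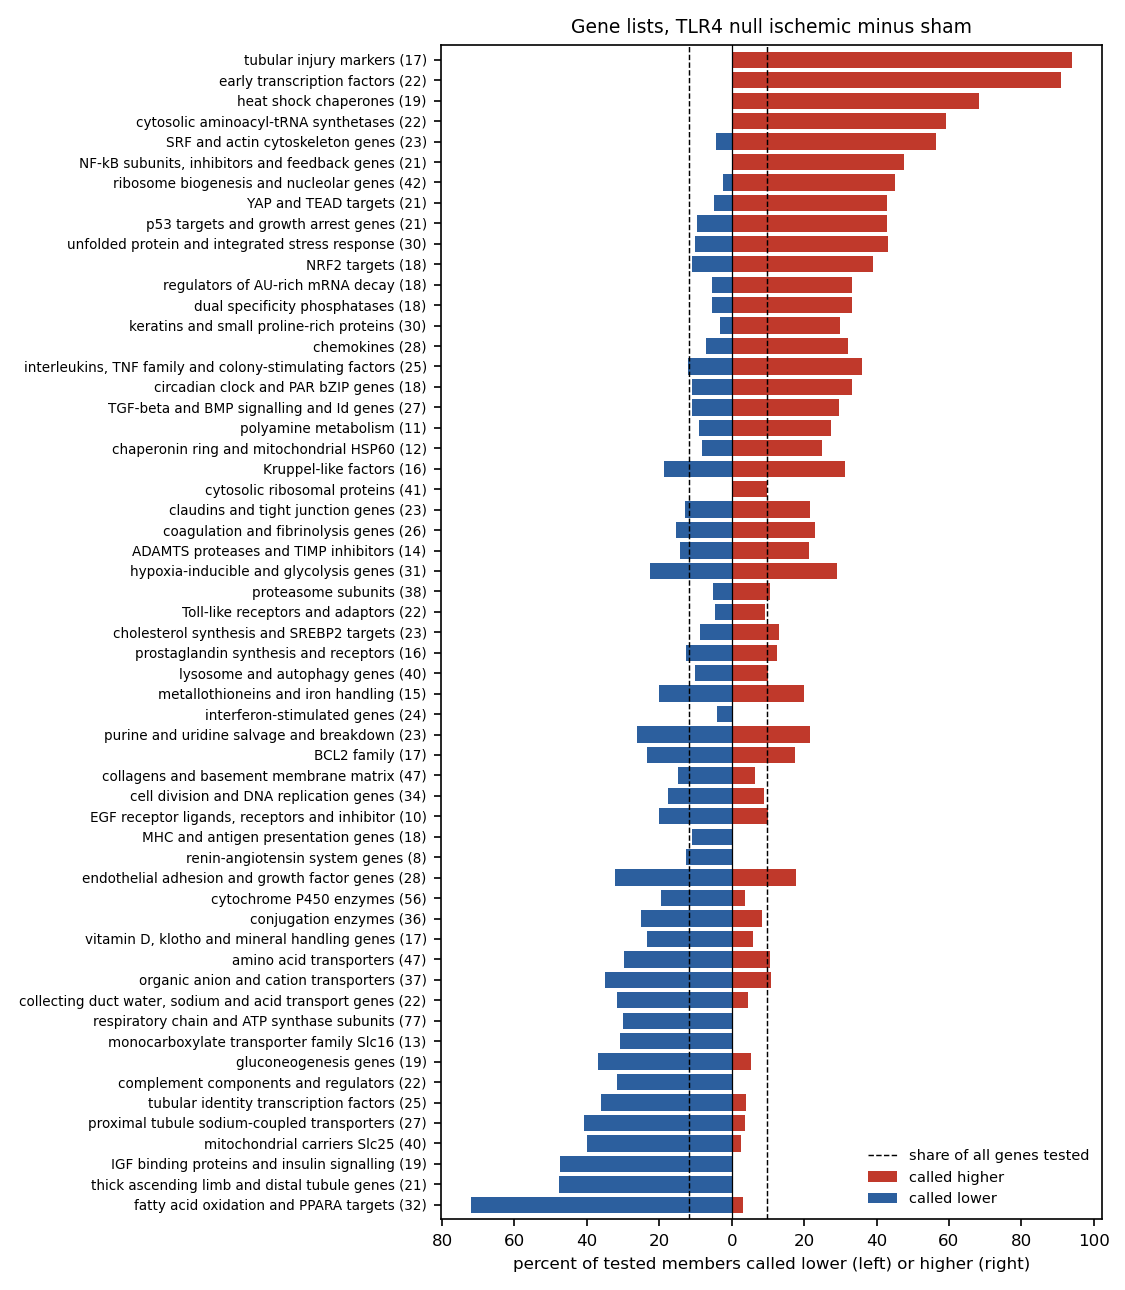
Percent of the tested members of each gene list (number tested in brackets) called higher (red, right) and lower (blue, left) in TLR4 null ischemic minus sham; dashed lines are the shares of all genes, 9.86% and 11.7%. Tubular injury markers (16 of 17 higher) and early transcription factors (20 of 22 higher) are at one end and fatty acid oxidation (23 of 32 lower) at the other.

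The 15 largest falls were smaller than the largest rises, and genes of glucose, uridine and carnitine metabolism were among them. G6pc, which releases glucose from its phosphate, had 1931, 2421 and 2987 in ischemic and 11927, 13423 and 11767 in sham kidneys and fell (-2.35 ± 0.13, limma adjusted p = 1.53e-08). Upp2, a uridine phosphorylase, had 115, 126 and 224 in ischemic and 814, 1016 and 1219.8 in sham kidneys and fell (-2.64 ± 0.21). Slc16a9, a carnitine carrier, had 594, 513 and 906 in ischemic and 2677, 3951 and 3137 in sham kidneys and fell (-2.28 ± 0.18). The mean ischemic signals were 19.8%, 15.2% and 20.6% of the sham means, and the groups did not overlap. Lpin1, a phosphatase of lipid synthesis and a coactivator of PPARA, had 584, 473 and 645 in ischemic and 1893, 1798 and 2046 in sham kidneys and fell (-1.74 ± 0.16). Depp1, a target of FOXO factors, had 189.7, 121 and 286 in ischemic and 618, 1101 and 764 in sham kidneys and fell (-2.01 ± 0.29). Clec2d, a ligand of a natural killer cell receptor, had 197, 210.0 and 293 in ischemic and 1709, 1030.1 and 1332 in sham kidneys and fell (-2.46 ± 0.19). The groups stood clear of each other in these genes as well. Lrrn1, Bcl11b and Bbox1, which makes carnitine, fell from low signals, with sham values of at most 99.9, 218 and 104. Other probe sets of Bcl11b did not pass (limma adjusted p over all probe sets of 0.0843 and 0.116). Kif20b, a mitotic kinesin, had 165, 54.8 and 196 in ischemic and 460.0, 591 and 477 in sham kidneys and fell (-1.91 ± 0.32). The rest of the 15 were Cyp2b10 (-1.95 ± 0.30), Tmem26 (-1.88 ± 0.19), Smim5 (-1.80 ± 0.38), Apela and the bone matrix proteoglycan Omd (-1.72 ± 0.22).

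Most genes of fatty acid oxidation fell. Of 32 tested genes 23 fell and 1 rose, with a median of -0.42, and 15 fell when arrays were centred on their medians. Slc25a20, which carries acylcarnitines into mitochondria, had 1398, 1431 and 1398 in ischemic and 2813, 3304 and 3021 in sham kidneys and fell (-1.10 ± 0.08, limma adjusted p = 1.83e-07). Cpt2, which reloads them onto coenzyme A, had 1090.1, 1140.4 and 1072 in ischemic and 2272, 2792 and 2531 in sham kidneys and fell (-1.19 ± 0.10). Acot1, an acyl-CoA thioesterase, had 649, 769 and 543 in ischemic and 1741, 1852 and 1982 in sham kidneys and fell (-1.50 ± 0.11). In these 3 genes the sham arrays were close together and all ischemic arrays lower. The carnitine acyltransferase Cpt1a (-0.62 ± 0.08), the peroxisomal enzyme Ehhadh (-1.19 ± 0.13), the regulator Ppara (-0.79 ± 0.17), its coactivator Ppargc1a (-0.49 ± 0.11) and the kinase Pdk4 (to 49.5% of the sham mean) fell, and the mitochondrial thioesterase Acot2 rose (0.60 ± 0.13).

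Other mitochondrial genes fell in part. Of 77 subunits of the respiratory chain and ATP synthase 23 fell and none rose, with a median of -0.19, but none fell when arrays were centred on their medians. In this list 7 fell without ischemic replicate 1, 9 fell without sham replicate 1 and 6 fell without sham replicate 2. Ndufb10, a subunit of complex I, fell with the full set of arrays (-0.37 ± 0.08, limma adjusted p = 0.00295, but adjusted p = 0.0552 after median centring). Of 40 mitochondrial carriers 16 fell and only Slc25a24, an ATP-magnesium carrier set by calcium, rose (1.97 ± 0.20). Slc25a24 had 949.8, 1359 and 747 in ischemic and 278, 202 and 248 in sham kidneys, without overlap. In gluconeogenesis 7 of 19 genes fell. Besides G6pc these included the glucose-6-phosphate carrier Slc37a4 (to 50.1% of the sham mean), Pck1 (-0.95 ± 0.14) and pyruvate carboxylase Pcx (-0.66 ± 0.10), while Fbp1 did not pass (-0.13 ± 0.11, adjusted p = 0.429). Hypoxia-inducible and glycolysis genes went both ways, 9 higher and 7 lower of 31, with Slc2a1 (1.04 ± 0.09), Adm (1.07 ± 0.14) and Hif1a (0.54 ± 0.13) up and Pdk1 (-0.76 ± 0.12) and Ndrg1 (-0.71 ± 0.12) down. In this list 5 rose without ischemic replicate 1 or sham replicate 2.

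Genes of drug and steroid metabolism fell in part. Of 56 cytochrome P450 enzymes 11 fell (19.6%) and 2 rose (3.57%), beside 11.7% and 9.86% of all genes. Cyp2b10 had 77.5, 72.7 and 67.2 in ischemic and 278, 279.6 and 428 in sham kidneys, and Cyp2j6 (-0.76 ± 0.14), Cyp4a31 (-0.81 ± 0.09) and Cyp27a1, which hydroxylates sterols (-0.62 ± 0.12), fell, while Cyp3a11 rose (1.24 ± 0.24). Among 36 conjugation enzymes 9 fell and 3 rose, led by the sulfotransferase Sult1a1 (-0.92 ± 0.18). In this list 4 fell without ischemic replicate 1 or sham replicate 2 or sham replicate 3, 3 fell without ischemic replicate 3 and 4 fell after median centring. Sterol synthesis was near the background, with 3 of 23 genes higher, among them Sqle (0.76 ± 0.16) and Msmo1 (0.76 ± 0.17).

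Genes of insulin and IGF signalling fell in part. Of 19 tested genes 9 fell and none rose, with a median of -0.49. Igf1r, the IGF receptor, had 1436, 1380.3 and 1270.0 in ischemic and 2615, 2194 and 2084 in sham kidneys and fell (-0.74 ± 0.11, limma adjusted p = 0.000186). Irs1, the adaptor of both receptors (-0.63 ± 0.12), Igfbp3 (-0.72 ± 0.13), Igfbp4 (-0.41 ± 0.07) and the transcription factor Foxo3 (-0.75 ± 0.11) fell, and Igfbp1 fell by 1.52 on the log2 scale, a call lost without sham replicate 3 (adjusted p = 0.0635). Igfbp1 had 182, 191 and 303 in ischemic and 399, 735 and 961 in sham kidneys.

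Transcription factors that define tubule segments fell in 9 of 25 cases, with a median of -0.38, and 1, Pax8 of the nephron lineage, rose (0.72 ± 0.14). Hnf4a, the factor of the mature proximal tubule, had 4022, 4389 and 4032 in ischemic and 5996, 6528 and 6079 in sham kidneys and fell (-0.58 ± 0.08, limma adjusted p = 8.54e-05). Lhx1 (-1.16 ± 0.15), Tfap2b (-0.97 ± 0.11) and Pou3f3 (-0.96 ± 0.08) of distal segments and Maf (-0.88 ± 0.09) fell. Pou3f3 had 958, 912 and 872 in ischemic and 1926, 1743 and 1717 in sham kidneys. In each of Hnf4a and Pou3f3 the ischemic arrays were below all sham arrays.

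Transporters of each segment fell in part. Of 277 solute carriers of any family 72 fell (26%) and 21 rose (7.58%), with 47 lower after median centring. In the proximal tubule 11 of 27 transporters and endocytic receptors fell, 6 after median centring. Slc5a12, a lactate carrier, had 1773, 1780.5 and 1873 in ischemic and 2957, 3089 and 3016 in sham kidneys and fell (-0.74 ± 0.09, limma adjusted p = 2.84e-05). Lrp2, which encodes the endocytic receptor megalin, had 4399, 4129 and 4168 in ischemic and 5461, 7098 and 5761 in sham kidneys and fell (-0.52 ± 0.10). The groups did not overlap in Slc5a12 or Lrp2, while the phosphate carrier Slc34a1 (-0.06 ± 0.11, adjusted p = 0.743) and the water channel Aqp1 (-0.21 ± 0.11, adjusted p = 0.185) did not pass. Slc20a1, the phosphate carrier of most cells, rose instead (2.10 ± 0.15), with 3623, 4191 and 2434 in ischemic and 704, 711 and 894 in sham kidneys. Among 37 carriers of organic anions and cations 13 fell, with the carnitine carrier Slc22a5 (-0.75 ± 0.09) and the anion carrier Slc22a7 (-0.86 ± 0.17) among them, and 4 rose. In this list 1 rose without ischemic replicate 2, 2 rose without sham replicate 2, 0 rose without sham replicate 3 and 1 rose after median centring.

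In the thick ascending limb and distal tubule 10 of 21 genes fell and none rose, with a median of -0.40. Kcnj1, the potassium channel ROMK, had 855, 780.4 and 758 in ischemic and 1373, 1726 and 1589 in sham kidneys and fell (-0.95 ± 0.09, limma adjusted p = 4.29e-06). The kinases Wnk1 (-0.78 ± 0.08) and Wnk4 (-0.84 ± 0.17), which set salt transport, the exchanger Slc8a1 (-0.99 ± 0.15) and the chloride channel subunit Bsnd (-0.71 ± 0.15) fell, while the salt carriers Slc12a1 (-0.27 ± 0.11, adjusted p = 0.0917) and Slc12a3 (-0.16 ± 0.12, adjusted p = 0.383) and uromodulin, Umod (-0.12 ± 0.11, adjusted p = 0.499), did not pass. In the collecting duct 7 of 22 fell (31.8%) and 1 rose (4.55%), beside 11.7% and 9.86% of all genes. In this list 4 fell without sham replicate 2 and 4 fell after median centring. Avpr2, the vasopressin receptor, had 186, 186 and 147 in ischemic and 354, 319.5 and 299 in sham kidneys and fell (-0.85 ± 0.16), as did the ammonia channel Rhcg (-0.83 ± 0.14) and Hsd11b2 (-0.64 ± 0.15). Of 17 genes of vitamin D, klotho and mineral handling 4 fell (23.5%) and 1 rose (5.88%). The vitamin D receptor Vdr (-0.93 ± 0.16) and its partner Rxra (-0.67 ± 0.11) fell, and Atp2b1 rose (limma adjusted p = 0.00012). Klotho (Kl) gave -0.25 ± 0.13 (adjusted p = 0.209).

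Some markers of neutrophils and of macrophages were called, beside 9.86% of all genes higher and 11.7% lower. Of 9 neutrophil markers 2 rose (22.2%), S100a8 and S100a9. The list's summed signal was 815 to 1193 on the ischemic and 568 to 934 on the sham arrays, which overlap. S100a9 had 163, 168 and 261 in ischemic and 81.8, 72.5 and 95.4 in sham kidneys and rose by 1.09 ± 0.22 (limma adjusted p = 0.00206), while the neutrophil granule gene Ltf did not pass (-0.52 ± 0.52, adjusted p = 0.547). Among the 11 markers of monocytes and macrophages, Cd68 rose (1.02 ± 0.19) and C1qa fell, 9.09% in each direction. Their summed signals were 2285 to 2573 on the ischemic and 2453 to 2595 on the sham arrays. Adgre1 (F4/80) gave -0.31 ± 0.15 (adjusted p = 0.174). None of 4 tested lymphocyte markers and 5 fat markers was called at an adjusted p of 0.05 in limma. Fat varied within the groups (summed signals of 2380 to 9737 ischemic and 3014 to 5794 sham), and its part in any result was not tested. The 7 podocyte markers gave 1 call in each direction, with sums of 2959 to 3528 and 2878 to 3218.

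The wild-type arrays allow the ischemic responses of TLR4 null and wild-type kidneys to be compared. The TLR4 null mice were of a separate substrain, so effects of TLR4 and of substrain cannot be told apart here. A control probe set of ribosomal RNA was also brighter on every TLR4 null ischemic array than on every wild-type ischemic array. Its part in this comparison was not tested. No gene of 14316 passed limma's test of the difference between the 2 responses (0% called, smallest adjusted p = 0.244), and 910 genes (6.36%) had an unadjusted p under 0.05. The median SE of that difference was 0.23 log2 units, against 0.17 for the TLR4 null comparison itself. Of the 528 genes called with at least 2-fold changes in TLR4 null kidneys, 411 (77.8%) were called in the same direction in wild type, and of 496 such genes in wild type 418 (84.3%) in TLR4 null kidneys. The 5 genes of smallest p for the difference were Apoc3, Prepl, Rpl27a, Mapre2 and Ube2n. Rpl27a, a ribosomal protein, gave 0.74 ± 0.19 in TLR4 null and -0.72 ± 0.19 in wild-type kidneys, a difference of 1.46 ± 0.27 (adjusted p = 0.244). In TLR4 null kidneys it had 1497, 1659.5 and 839.5 in ischemic and 795, 659 and 833 in sham kidneys, and its own call was lost without ischemic replicate 1 (adjusted p = 0.0573), ischemic replicate 2 (0.0588) or sham replicate 2 (0.0589). Ube2n, a ubiquitin-conjugating enzyme that acts downstream of Toll-like receptors, gave 0.73 ± 0.11 and -0.08 ± 0.11, and its TLR4 null call was lost with probe sets averaged (adjusted p = 0.0948). Apoc3, an apolipoprotein, gave -0.32 ± 0.11 and -1.31 ± 0.11, Prepl 0.26 ± 0.15 and -0.97 ± 0.15, and the microtubule-binding Mapre2 0.07 ± 0.09 and -0.58 ± 0.09.

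The count turned on 1 array. Without ischemic replicate 3 of the TLR4 null group 15 genes passed the test of the difference, and with any other of the 12 arrays left out none did. Those 15 included Rpl27a, Prepl, Mapre2, Apoc3 and Ube2n of the genes above, and Jun, whose rise without that array was 2.20 in TLR4 null against 3.71 in wild-type kidneys. Jun had 4686, 2522 and 11180 in ischemic and 722, 667 and 836 in sham kidneys, so that replicate 3 was the highest of the ischemic arrays. With all arrays Jun rose by 2.76 ± 0.34 in TLR4 null and by 3.71 ± 0.34 in wild-type kidneys, and the difference of -0.95 ± 0.48 did not pass (adjusted p = 0.795). For Hspa1a the difference was -0.99 ± 0.52 (adjusted p = 0.814), for Hmox1 1.39 ± 0.74 (adjusted p = 0.814) and for Krt20 1.14 ± 0.57 (adjusted p = 0.795).

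**Figure D5:**
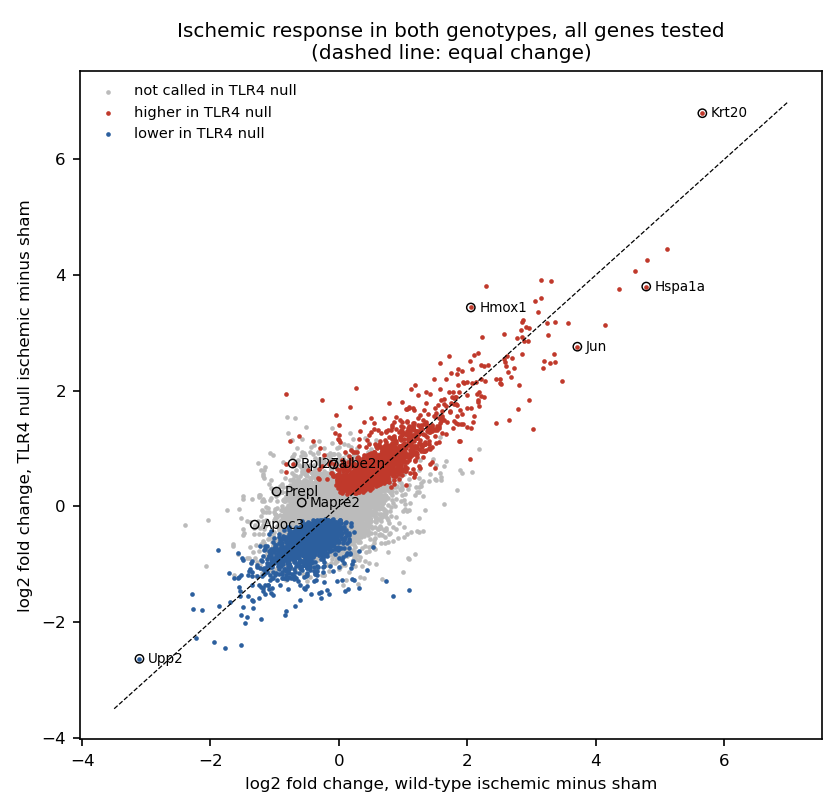
Each point is 1 of 14316 genes, with the log2 fold change of ischemic minus sham in wild-type kidneys on the x axis and in TLR4 null kidneys on the y axis; colours give the call in TLR4 null kidneys, and the dashed line marks equal change. Circled are the genes named in the text, with Rpl27a at -0.72 and 0.74 and Krt20 at 5.66 and 6.80.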

How the data were processed

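The submitters deposited a table of array values whose units are linear signal intensities from MAS5, as the submitters' processing notes name it. Its version, scaling target and detection calls are not known from the sources used here. In the table the mean of the middle 96% of probe sets was 250.0 on every array, and the 64 control probe sets were left out of the tests.

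Signals were not normalized again. They were taken as log2(signal + 15), and probe sets were kept where the signal exceeded the array's 40th percentile on at least 3 of the 12 arrays. The brightest probe set, that of the highest mean log2 value over the 12 arrays, stood for a gene. Gene names came from the platform annotation: 34958 probe sets had 1 gene symbol, 932 several and 9211 none, and only those with 1 were named. limma 3.58.1 in R 4.3.3 (lmFit, eBayes with trend) fitted the 4 group means to all 12 arrays with 8 residual degrees of freedom, and p-values were adjusted over all tested genes by the method of Benjamini and Hochberg. The number of arrays, 3 in each group, limits the precision. In simulated data 75, 56 and 69 of 14316 genes were changed by 0.5, 1 and 2 log2 units. The fit recovered 25.3%, 73.2% and 94.2% of them in the TLR4 null comparison, and 6 of 131 calls were false. The noise was drawn independently for each gene, and a far smaller share was changed than the 21.6% called in the data. These rates therefore need not hold for the real comparison. Python 3.11.15, pandas 2.3.3 and matplotlib 3.10.9 made the tables and figures.

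The comparison and the gene lists were chosen with earlier results of these data known. Some genes, such as Btg2 and Ccn1, belong to more than a single list. Genes were named by rule: the 15 largest rises and falls without overlap, the 5 smallest p in each direction, up to 4 members of smallest p and up to 3 bright members that did not pass in each list, the 5 of smallest p for the difference between genotypes, Tlr4, cell type markers, and up to 5 genes whose probe sets were called in opposite directions. Other genes named, among them Jun, Il6, Asns, Hspb1 and Hnf4a, were chosen after their values were seen. Listed genes whose symbols the annotation did not hold were not analysed here. Alternatives covered the scaling, pseudocount, filter, probe set rule, variance model, arrays used, the replicate number as a block and each array left out. Replicate numbers were not used to pair the samples in the main fit.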

Additional observations from a re-analysis of the deposited data

Results flagged for a closer look

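The 3' probe set of the 18S ribosomal RNA control, which belongs to no gene comparison, was brighter on every TLR4 null ischemic array than on every sham array. Its mean was 2114.5 ± 636 (SD, n = 3) in ischemic and 406 ± 90.8 (SD, n = 3) in sham kidneys, with single arrays at 2287, 2646 and 1410 against 439, 304 and 476. An exact two-sided permutation test gave p = 0.1, the smallest that 3 against 3 arrays allow, and 0.4 after adjustment over 6 quality measures. Wild-type ischemic kidneys were at 535 to 574. What this signal has to do with the gene results was not tested. Groups of 3 arrays are too small for a test of outlying samples, so none was made.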

How the results depend on the processing

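The TLR4 null comparison gave 1144 to 1639 rises and 1030 to 2036 falls over the 24 alternatives. The 1030 falls came with arrays centred on their medians, the only alternative that moved a count of calls by more than 1.5 times apart from the genotype difference, and the cause was not tested. Leaving out 1 array gave 1144 to 1440 rises, 1186 to 1667 falls and 3817 to 5003 called probe sets, against 5072 with all arrays. For the difference between genotypes it gave 0 to 15 calls, the 15 without TLR4 null ischemic replicate 3. With the replicate block 1368 genes rose, 1552 fell, 4773 probe sets were called and the difference between genotypes had 0 calls in limma. Deviations of same-numbered TLR4 null arrays from their group means correlated at r = -0.05, 0.10 and -0.03. With 3 arrays in a group this cannot settle whether the numbers pair the samples, and the main fit did not pair them. Of 222 called genes given with a fold change 218 kept their call under every alternative in which they were tested, and none changed sign. The exceptions were Igfbp1, Rpl27a, Ube2n and Ndufb10. Of 19 that were not called, 6 passed under some alternative (Ahsa1, Apoc3, Ccn2, Cdh5, Myd88 and Slc12a1). Mapre2 changed sign with probe sets averaged (-0.26), and the dim Tlr4 ranged from -0.47 to 0.53 without 1 array. Of 140 list counts 29 moved by more than 1.5 times after median centring and 16 to 24 without 1 TLR4 null array. Dim genes, near the added 15, have understated folds.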

Other observations

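Genes of further lists were called in TLR4 null ischemic kidneys, several of these lists at about the shares of all genes (9.86% higher, 11.7% lower). Of 16 prostaglandin genes 2 rose and 2 fell (12.5% each). Ptgs2, the inducible cyclooxygenase, had 85.4, 198 and 177 in ischemic and 36.8, 4.50 and 1.79 in sham kidneys and rose by 2.64 ± 0.40 (limma adjusted p = 0.000251), while the receptor Ptger3 fell (-0.95 ± 0.16). All 3 ischemic arrays lay above the sham arrays for Ptgs2. Of 18 regulators of AU-rich mRNA decay 6 rose and 1 fell, including Elavl1, which stabilises such mRNAs (0.63 ± 0.08), and Btg1 (0.93 ± 0.11). Of 18 clock genes 6 rose and 2 fell, with Dbp at 1.05 ± 0.19 and Bhlhe40 at 0.66 ± 0.11. Without ischemic replicate 3, sham replicate 3 and sham replicate 2 in turn, 2, 3 and 4 clock genes rose.

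Cell division genes were near the background with 3 of 34 higher and 6 lower. Cdk6, a kinase of G1, rose (0.94 ± 0.21), as did the replication licensing factor Cdt1 (0.94 ± 0.17), and the replicative helicase subunit Mcm7 fell (-0.56 ± 0.11). In purine and uridine metabolism 5 of 23 genes rose and 6 fell, the AMP deaminase Ampd3 rising (1.05 ± 0.14) and the uridine kinase Uck1 falling (-0.68 ± 0.15). Without ischemic replicate 1 there were 2 rises, without ischemic replicate 2, ischemic replicate 3 or sham replicate 2 there were 3. Of 250 numbered zinc finger genes 14 rose (5.6%) and 27 fell (10.8%), and 17 fell after median centring. Without ischemic replicate 3 or sham replicate 1, 2 or 3 the falls numbered 17, 16, 18 and 12.

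Probe sets of 14 genes were called in opposite directions, of 846 genes with more than 1 called probe set. Akirin2 had one at 1.25 (1041 to 1210 in sham) and one dim one at -1.26 (71.7 to 96.1 in sham). The pairs were -0.77 and 1.22 for Itsn1, -0.45 and 1.00 for Kmt2e, -0.52 and 1.36 for Pik3r1, and -1.08 and 0.83 for Rpl41. Of 5020 tested probe sets without a gene name 240 were higher (4.78%) and 224 lower (4.46%), 85 and 36 of them at least 2-fold, against 8.5% and 8.24% of all 30304 probe sets.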
